A study of Mus musculus and Homo sapiens with 176 samples.

Results

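Synaptotagmins are the family of C2-domain proteins that couple calcium to membrane fusion. The 10 genes described here, Syt1, Syt2, Syt4, Syt5, Syt6, Syt7, Syt10, Syt11, Syt16 and Syt17, are 10 of the 17 synaptotagmin genes, and of the 24854 features, in the RNA tables of sorted mouse brain nuclei. They were picked by symbol because their FPKM (sequenced fragments relative to transcript length and library size) differed between brain regions and sorting gates in these same libraries. Their values are therefore given as a description, with no test, and tests are kept for the other 7 synaptotagmins and for partner genes.

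The series holds 176 samples, most of them chromatin libraries, and 8 RNA libraries were used. The 8 libraries were made from nuclei of cerebellum (Cb) and prefrontal cortex (PFC) of mouse M3, of strain C57BL/6 and 8 to 10 weeks of age, with no genetic change or treatment named in the labels. Nuclei were stained for NeuN, the neuronal nuclear protein encoded by Rbfox3, and sorted. The 4 groups, cerebellar NeuN+, cerebellar NeuN-, prefrontal NeuN+ and prefrontal NeuN- nuclei, had 2 libraries each. Because the libraries came from 1 mouse, spreads and p-values measure the spread between libraries of that mouse only, which may be technical.

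Most synaptotagmins sit in the membrane of secretory vesicles and bind SNARE proteins and phospholipids through a pair of C2 domains. Syt1 and Syt2 are the fast calcium sensors of synchronous transmitter release, with Syt2 best known from hindbrain synapses, and Syt7 is a slower sensor of high calcium affinity linked to asynchronous release and facilitation. Syt4 and Syt11 carry a substitution in the calcium site of the first C2 domain, and several other members, Syt16 and Syt17 among them, bind membranes or partners with little or no calcium dependence.

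FPKM sums per library ran from 289350 to 426851, highest in the prefrontal NeuN- libraries. Relative depth, estimated from the width of the deposited confidence limits of FPKM, differed by up to 1.51 times between libraries. Rbfox3 itself had 123 and 119 FPKM in cerebellar NeuN+ libraries and 33.3 and 34.5 FPKM in cerebellar NeuN- libraries. In prefrontal cortex it had 16.2 and 15.7 FPKM in NeuN+ libraries and 14.2 and 12.3 FPKM in NeuN- libraries. Markers of astrocytes (8 of 8) and oligodendrocytes (8 of 8) were lower in NeuN+ nuclei of both regions by limma at an adjusted p under 0.05. Among all features 32.4% were called higher and 39.2% lower in NeuN+ nuclei of cerebellum, and 35% and 37.6% in prefrontal cortex. Of 10 general neuronal markers, 9 were higher and 1 was lower in NeuN+ nuclei of cerebellum, but 3 were higher and 5 were lower in NeuN+ nuclei of prefrontal cortex. Their summed level, before scaling of the libraries, was 1499 to 1520 FPKM in prefrontal NeuN+ libraries and 2238 to 2339 FPKM in prefrontal NeuN- libraries. Most of both sums was Snap25, with 980 and 976 FPKM in NeuN+ and 1579 and 1664 FPKM in NeuN- libraries. After scaling, the median log2 change of the 10 markers (NeuN+ minus NeuN-) was -0.07 in prefrontal cortex. The prefrontal NeuN- libraries thus carried much neuronal RNA, and none of the 10 general neuronal markers was at 0 in any group. In sorted nuclei measured in bulk, fewer nuclei of a type and less RNA per nucleus cannot be told apart.

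The family as a whole was more abundant in prefrontal cortex and was dominated by few members. The 17 genes summed to 332 and 332 FPKM in cerebellar NeuN+ libraries, 241 and 244 in cerebellar NeuN- libraries, 569 and 567 in prefrontal NeuN+ libraries, and 525 and 533 in prefrontal NeuN- libraries. The 10 members made up 75.8% and 75.5% of that sum in cerebellar NeuN+, 78.8% and 79.2% in cerebellar NeuN-, 92.9% and 92.9% in prefrontal NeuN+, and 94.9% and 95.4% in prefrontal NeuN- libraries. All 10 passed the filter of at least 1 FPKM in at least 2 libraries, and 7 of them reached 1 FPKM in each cerebellar library and 9 in each prefrontal library. Syt11 was the most abundant synaptotagmin in all 8 libraries, and Syt1 and Syt4 followed in both NeuN+ groups. In cerebellar NeuN- libraries Syt10 stood next after Syt11 and Syt4, above Syt1, and in prefrontal NeuN- libraries Syt5 stood next after Syt11 and Syt1, above Syt4.

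**Figure D1:**
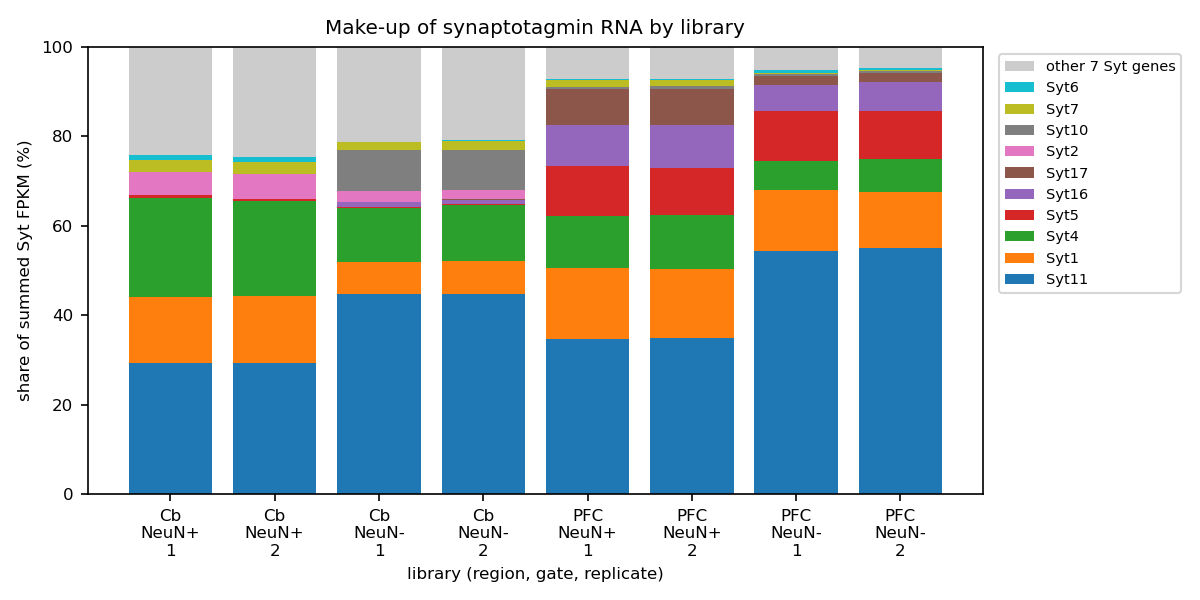
Share of the summed synaptotagmin FPKM (vertical axis, percent) taken by each of the 10 members and by the other 7 genes together, in each of the 8 libraries (horizontal axis). Syt11 took 29.4% and 29.3% in cerebellar NeuN+, 44.8% and 44.7% in cerebellar NeuN-, 34.7% and 34.9% in prefrontal NeuN+, and 54.3% and 55.1% in prefrontal NeuN- libraries.

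The pair of fast release sensors split by region. Syt1 (chr10:107934706-108448031, mm9) had 49.0 and 49.6 FPKM in cerebellar NeuN+ libraries and 17.2 and 18.3 FPKM in cerebellar NeuN- libraries. It had 89.8 and 87.8 FPKM in prefrontal NeuN+ libraries and 72.5 and 66.6 FPKM in prefrontal NeuN- libraries. No groups overlapped, and both prefrontal groups lay above both cerebellar groups. After scaling of the libraries to one another, Syt1 was 2.69-fold higher in NeuN+ than in NeuN- nuclei of cerebellum and 1.5-fold higher in prefrontal cortex, on the FPKM + 1 scale used for all folds here. Between the regions it was 1.80-fold lower in cerebellar than in prefrontal NeuN+ nuclei and 3.23-fold lower in cerebellar than in prefrontal NeuN- nuclei. The Syt1 locus overlaps the feature Gm5136, and no source used here says whether fragments were assigned by strand, so those of the pair may not have been separated; the loci of the other 9 members overlap no other feature.

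Syt2 (chr1:136543258-136645994) ran the other way between the regions. It had 17.3 and 18.8 FPKM in cerebellar NeuN+ libraries, 5.61 and 4.88 FPKM in cerebellar NeuN- libraries, 0.682 and 0.549 FPKM in prefrontal NeuN+ libraries, and 0.145 and 0.103 FPKM in prefrontal NeuN- libraries. The 4 groups were apart, and within each region the NeuN+ libraries were higher. Syt2 was 11.9-fold higher in cerebellar than in prefrontal NeuN+ nuclei and 5.75-fold higher in cerebellar than in prefrontal NeuN- nuclei. Within regions it was 3.06-fold higher in NeuN+ than in NeuN- nuclei of cerebellum, and 1.48-fold higher in prefrontal cortex, where both groups lay below 1 FPKM. The order of these folds depends on the added 1 and is the reverse for scaled means. Prefrontal nuclei held 3.44% of the cerebellar level of Syt2 in NeuN+ and 2.02% in NeuN- nuclei. NeuN- nuclei held 29.1% of the NeuN+ level in cerebellum and 17.0% in prefrontal cortex.

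Ratios taken within a library do not depend on scaling between libraries. The library held 0.353 and 0.379 units of Syt2 FPKM per unit of Syt1 in cerebellar NeuN+ nuclei and 0.325 and 0.267 in cerebellar NeuN- nuclei. The same ratio was 0.00760 and 0.00625 in prefrontal NeuN+ nuclei and 0.00200 and 0.00155 in prefrontal NeuN- nuclei. The Syt2 share of the sensor pair thus differed far more between the regions than between the gates of cerebellum.

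The promoters of this pair are printed because the genes share a function and differ in region. Each run is the 250 bases before the transcription start, read 5′ to 3′ on the gene's strand, from RefSeq on GRCm38.p6; Syt1 covers chr10:109010976-109011225 on the minus strand and Syt2 covers chr1:134646362-134646611 on the plus strand, each from the first start listed. Capitals mark matches, on either strand, to the CCAAT box (CCAAT), the GC box (GGGCGG), the TATA box (TATAAA), the E boxes CACGTG and CAGCTG, and the cAMP response element core (TGACG).
Syt1: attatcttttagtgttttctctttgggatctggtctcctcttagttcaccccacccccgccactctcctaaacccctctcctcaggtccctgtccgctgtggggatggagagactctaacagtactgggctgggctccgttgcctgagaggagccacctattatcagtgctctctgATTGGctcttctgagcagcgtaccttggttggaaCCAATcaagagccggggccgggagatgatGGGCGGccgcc
Syt2: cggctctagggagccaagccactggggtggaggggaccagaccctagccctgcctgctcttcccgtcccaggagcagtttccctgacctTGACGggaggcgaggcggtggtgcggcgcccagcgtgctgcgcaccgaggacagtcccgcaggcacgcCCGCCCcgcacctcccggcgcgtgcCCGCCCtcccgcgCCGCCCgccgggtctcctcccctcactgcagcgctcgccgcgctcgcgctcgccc
The Syt1 window held 2 CCAAT boxes and 1 GC box, with a GC content of 56.4% and 8 CpG dinucleotides. The Syt2 window held 3 GC boxes and 1 TGACG core and no CCAAT box, with a GC content of 76% and 30 CpG dinucleotides. Both genes have a second listed start, whose window differs: that of Syt1 held no CCAAT or GC box (GC content 42.8%, 5 CpG), and that of Syt2 held 1 CCAAT box, 2 GC boxes and no TGACG core (66.4%, 22 CpG). The difference in motifs thus belongs to the first starts, and the tables do not say which start was used. The medians over all 32851 RefSeq promoter windows of that length were 52.4% and 6. Of those windows 33.8% held a CCAAT box, 32.7% a GC box and 17.8% a TGACG core, so a match is common and describes the letters only.

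Syt5, Syt6 and Syt7, calcium-binding members of other vesicle classes, had 3 different patterns. Syt5 (chr7:4491367-4498169), found on synaptic and dense-core vesicles, was a prefrontal gene in these nuclei. It had 1.84 and 1.67 FPKM in cerebellar NeuN+ libraries, 0.291 and 0.511 FPKM in cerebellar NeuN- libraries, 64.0 and 59.7 FPKM in prefrontal NeuN+ libraries, and 58.0 and 57.6 FPKM in prefrontal NeuN- libraries. Every prefrontal library exceeded every cerebellar one, while the prefrontal gates lay close together. Syt5 was 23.2-fold lower in cerebellar than in prefrontal NeuN+ nuclei and 36.8-fold lower in cerebellar than in prefrontal NeuN- nuclei, but 1.26-fold higher in prefrontal NeuN+ than in prefrontal NeuN- nuclei, a log2 change of 0.33 that ran from 0.09 to 0.54 over 4 scalings. Its ratio to Syt1 was 0.0376 and 0.0337 for cerebellar NeuN+ and 0.0169 and 0.0280 for cerebellar NeuN- libraries. For prefrontal NeuN+ libraries the ratio was 0.713 and 0.680, and for prefrontal NeuN- libraries 0.801 and 0.865.

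Syt6 (chr3:103379205-103449490), known from the sperm acrosome reaction and also made in brain, was low and turned direction between the regions. It had 3.73 and 4.02 FPKM in cerebellar NeuN+ libraries and 0.133 and 0.175 FPKM in cerebellar NeuN- libraries. It had 1.73 and 1.26 FPKM in prefrontal NeuN+ libraries and 3.66 and 2.47 FPKM in prefrontal NeuN- libraries. NeuN+ libraries were the higher ones in cerebellum and the lower ones in prefrontal cortex. The differences were 4.30-fold higher in NeuN+ nuclei of cerebellum and 1.44-fold lower in NeuN+ nuclei of prefrontal cortex, the log2 change in prefrontal cortex running from -0.86 to -0.19 over the 4 pairings of libraries.

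Syt7 (chr19:10463580-10527671) was close to level between the regions in NeuN+ nuclei and apart in NeuN- nuclei. It had 8.79 and 8.56 FPKM in cerebellar NeuN+ libraries, 4.43 and 4.93 FPKM in cerebellar NeuN- libraries, 8.40 and 7.95 FPKM in prefrontal NeuN+ libraries, and 1.74 and 1.70 FPKM in prefrontal NeuN- libraries. The scaled means of the NeuN+ groups, 8.92 ± 0.217 in cerebellum and 8.47 ± 0.332 in prefrontal cortex (SD, n = 2 each), differed by less than their summed SDs. NeuN- nuclei held 53.8% of the NeuN+ level in cerebellum and 17.8% in prefrontal cortex. Syt1 in the same libraries kept 36.0% in cerebellar and 66.4% in prefrontal NeuN- nuclei, so that the slow and the fast sensor had opposite orders of the regions.

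**Figure D2:**
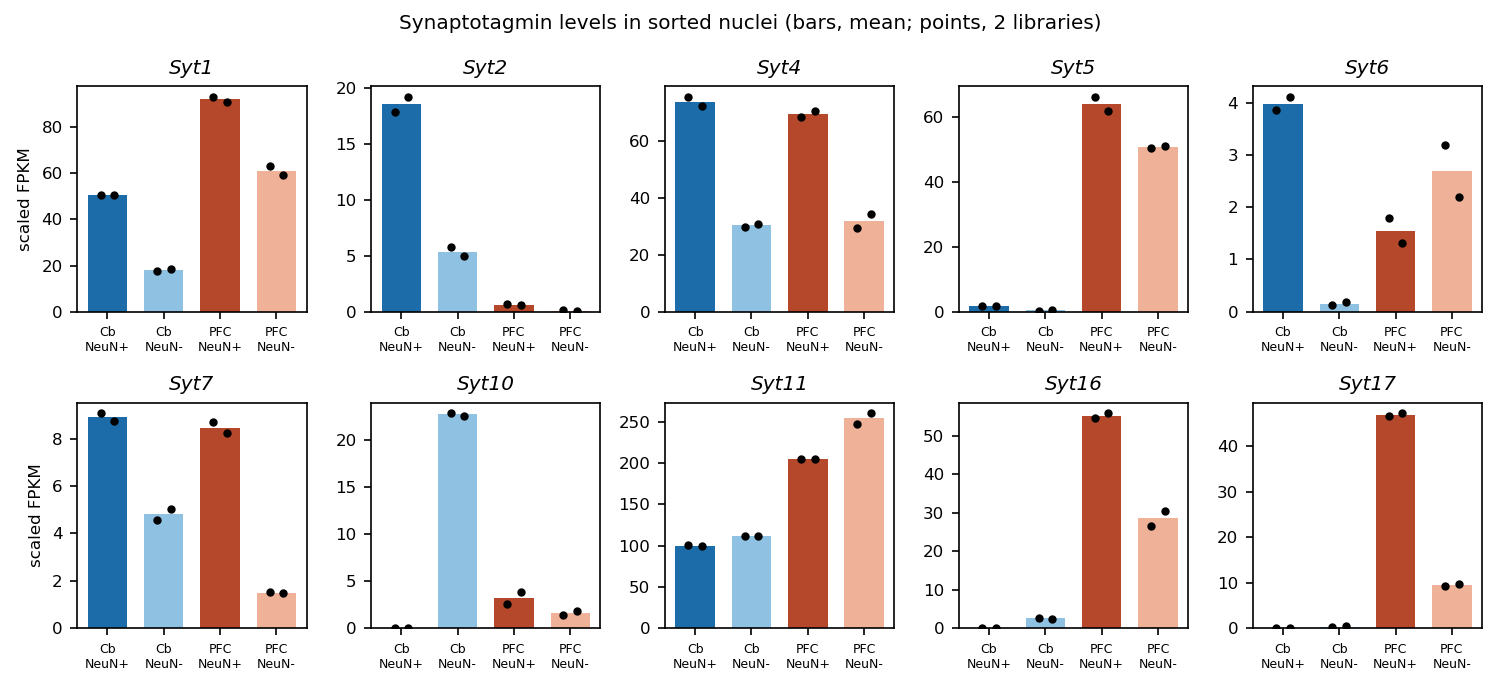
Scaled FPKM (vertical axis, each panel with its own range) of the 10 members in the 4 groups (horizontal axis); bars are means and points the 2 libraries of a group. Syt5, Syt16 and Syt17 are high in prefrontal nuclei, Syt2 in cerebellar nuclei and Syt10 is highest in cerebellar NeuN- nuclei.

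Syt4 and Syt11, the related pair with the altered calcium site, behaved differently from each other. Syt4 (chr18:31597462-31607069), a gene induced by activity and found on dense-core vesicles and postsynaptic organelles, followed the gate rather than the region. It had 73.3 and 70.6 FPKM in cerebellar NeuN+ libraries, 29.1 and 30.4 FPKM in cerebellar NeuN- libraries, 66.3 and 68.4 FPKM in prefrontal NeuN+ libraries, and 34.0 and 38.9 FPKM in prefrontal NeuN- libraries. It was 2.38-fold higher in NeuN+ nuclei of cerebellum and 2.15-fold higher in NeuN+ nuclei of prefrontal cortex. Between the regions the log2 difference was 0.08 in NeuN+ nuclei and -0.06 in NeuN- nuclei, where the scaled libraries overlapped and where the sign depended on the scaling (-0.28 to 0.23 over 4 scalings).

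Syt11 (chr3:88548623-88576521), linked to endocytosis and vesicle trafficking, followed the region. It had 97.4 and 97.4 FPKM in cerebellar NeuN+ libraries, 108 and 109 FPKM in cerebellar NeuN- libraries, 197 and 198 FPKM in prefrontal NeuN+ libraries, and 285 and 294 FPKM in prefrontal NeuN- libraries. Within each region the NeuN- libraries were the higher ones. Syt11 was 2.03-fold lower in cerebellar than in prefrontal NeuN+ nuclei and 2.27-fold lower in cerebellar than in prefrontal NeuN- nuclei. The gate difference was small, 1.11-fold lower in NeuN+ nuclei of cerebellum and 1.24-fold lower in NeuN+ nuclei of prefrontal cortex, and the prefrontal log2 change of -0.31 ran from -0.55 to 0.0028 over 4 scalings.

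Relative to Syt11, Syt4 stood at 0.753 and 0.725 in cerebellar NeuN+ libraries, with 0.269 and 0.278 in cerebellar NeuN- libraries. The ratio was 0.336 and 0.346 in prefrontal NeuN+ and 0.119 and 0.133 in prefrontal NeuN- libraries. NeuN+ libraries had the higher ratio in both regions, whatever the scaling. Syt11 per Syt1 was 1.99 and 1.97 for cerebellar NeuN+ libraries, 6.27 and 5.98 for cerebellar NeuN- libraries, and 2.20 and 2.25 in prefrontal NeuN+ and 3.93 and 4.41 in prefrontal NeuN- libraries. Each NeuN- library thus held more Syt11 for its Syt1 than each NeuN+ library of either region.

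**Figure D3:**
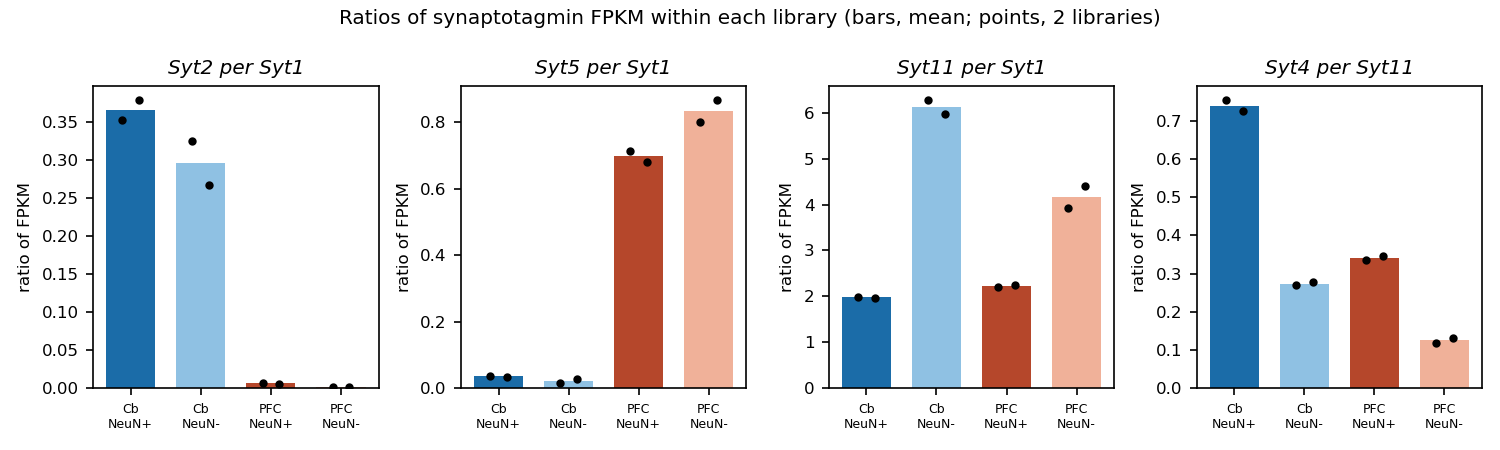
Ratios of FPKM within each library (vertical axes, FPKM per FPKM) in the 4 groups (horizontal axis); bars are means and points the 2 libraries. Syt2 per Syt1 lies between 0.267 and 0.379 in cerebellum and between 0.00155 and 0.00760 in prefrontal cortex, Syt5 per Syt1 has the opposite order of regions, and Syt11 per Syt1 is higher in NeuN- nuclei of both regions.

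Syt10, Syt16 and Syt17 were listed at or near 0 in cerebellar NeuN+ nuclei. Syt10 (chr15:89612824-89672291), which controls secretion of IGF-1 in olfactory bulb neurons, was listed at 0 in both cerebellar NeuN+ libraries and at 22.2 and 22.1 FPKM in both cerebellar NeuN- libraries. It had 2.47 and 3.71 FPKM in prefrontal NeuN+ libraries and 1.66 and 2.05 FPKM in prefrontal NeuN- libraries. The cerebellar NeuN- libraries stood above all others, with a level 9.04-fold higher than in prefrontal NeuN- nuclei. In cerebellar NeuN- libraries Syt10 reached 1.28 and 1.21 times the FPKM of Syt1. Markers of cerebellar molecular layer interneurons were also higher there: their sum was 29.0 to 29.1 FPKM in cerebellar NeuN+ and 113 FPKM in both cerebellar NeuN- libraries, 8 of 8 passed the limma test as lower in NeuN+ nuclei, and none was at 0 in both libraries of either group. Bergmann glia (7 of 7 tested), astrocyte and oligodendrocyte (8 of 8 each) markers were likewise lower in cerebellar NeuN+ nuclei. So were oligodendrocyte precursor (6 of 6 tested), microglia (6 of 7 tested) and vascular (3 of 3 tested) markers, beside 39.2% of all features called lower. Granule cell (8 of 8) and Purkinje cell (4 of 8) markers were higher. The part of these cell types in the Syt10 difference was not tested.

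Syt16 (chr12:75098748-75368903), a member without a transmembrane segment, had 0.0475 and 0.0211 FPKM in cerebellar NeuN+ libraries, with lower confidence limits of 0 in the authors' tables, and 2.68 and 2.36 FPKM in cerebellar NeuN- libraries. It had 52.7 and 53.9 FPKM in prefrontal NeuN+ libraries and 30.7 and 34.4 FPKM in prefrontal NeuN- libraries. All prefrontal libraries exceeded all cerebellar ones, and the higher gate was NeuN- in cerebellum and NeuN+ in prefrontal cortex. It was 3.46-fold lower in NeuN+ nuclei of cerebellum and 1.90-fold higher in NeuN+ nuclei of prefrontal cortex. Between the regions it was 54.3-fold lower in cerebellar than in prefrontal NeuN+ nuclei and 8.24-fold lower in cerebellar than in prefrontal NeuN- nuclei.

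Syt17 (chr7:125525370-125587066), a C2 protein of the Golgi and of growing neurites, was listed at 0 in both cerebellar NeuN+ libraries and had 0.319 and 0.448 FPKM in cerebellar NeuN- libraries. It had 45.1 and 45.6 FPKM in prefrontal NeuN+ libraries and 10.8 and 10.9 FPKM in prefrontal NeuN- libraries. Prefrontal NeuN+ libraries were the highest, 4.56-fold above prefrontal NeuN- nuclei, and cerebellar NeuN- nuclei were 7.56-fold lower than prefrontal NeuN- nuclei. Prefrontal NeuN- nuclei kept 20.3% of the NeuN+ level of Syt17 and 51.8% of that of Syt16, and Syt17 per Syt16 was 0.856 and 0.846 in prefrontal NeuN+ and 0.352 and 0.316 in prefrontal NeuN- libraries. Cortical projection neuron markers moved the same way, with 7 of 8 tested called higher in prefrontal NeuN+ nuclei, beside 35% of all features. Their sum was 50.5 to 52.8 FPKM in prefrontal NeuN+ and 23.3 to 25.3 FPKM in prefrontal NeuN- libraries. Of 8 cortical interneuron markers 4 were higher and 1 lower, and of 10 general neuronal markers 3 were higher and 5 lower. The part of these cell types in the Syt16 and Syt17 differences was not tested.

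The Syt10 and Syt16 promoters are shown as those of members that shared low levels in cerebellar NeuN+ nuclei and had different high groups; the windows, source and capitals are as above, at chr15:89841861-89842110 on the minus strand for Syt10 and chr12:73997527-73997776 on the plus strand for Syt16.
Syt10: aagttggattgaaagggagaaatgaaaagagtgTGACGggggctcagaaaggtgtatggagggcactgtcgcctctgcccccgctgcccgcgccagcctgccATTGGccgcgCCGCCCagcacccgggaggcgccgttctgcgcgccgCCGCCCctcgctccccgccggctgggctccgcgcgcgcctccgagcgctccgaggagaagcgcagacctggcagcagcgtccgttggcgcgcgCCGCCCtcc
Syt16: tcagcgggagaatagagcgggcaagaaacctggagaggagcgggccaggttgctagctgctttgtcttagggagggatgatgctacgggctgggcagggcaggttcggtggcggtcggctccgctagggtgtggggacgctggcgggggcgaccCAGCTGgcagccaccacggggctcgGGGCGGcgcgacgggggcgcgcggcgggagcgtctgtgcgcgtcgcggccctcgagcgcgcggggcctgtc
Both windows were rich in CpG, with 32 and a GC content of 72% in Syt10 and 30 and 72.8% in Syt16. Syt10 held 1 CCAAT box, 3 GC boxes and 1 TGACG core, and Syt16 held 1 GC box and 1 CAGCTG box, which 13.0% of all windows held. None of the 4 windows shown held a TATA box, which 12.4% of all windows held. RefSeq windows were found for 6 of the 10 members, with 10 starts; those of Syt4, Syt5, Syt7 and Syt17 are not shown.

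Across the 10 members the gate and region differences can be set side by side. In cerebellum 6 members were higher and 4 lower in NeuN+ nuclei with no overlap of libraries, beside 39.5% and 45.9% of the 14376 features tested. In prefrontal cortex 8 were higher and 2 lower in NeuN+ nuclei, beside 42% and 44% of features. In NeuN+ nuclei 4 were higher and 6 lower in cerebellum, beside 41.9% and 45.9% of features. In NeuN- nuclei 3 were higher and 6 lower in cerebellum and 1, Syt4, overlapped, beside 46% and 43.8% of features. The members were chosen on these contrasts, so nothing is read from the counts. The median log2 change of the members was 0.88 for the gate in cerebellum, 0.62 for the gate in prefrontal cortex, -0.94 for the region in NeuN+ nuclei and -1.42 for the region in NeuN- nuclei. The medians of all features in the same order were -0.04, -0.01, -0.03 and 0.02. Other scalings moved the median of all features to between -0.19 and 0.14 for the prefrontal gate and between -0.13 and 0.26 for the region in NeuN- nuclei, so small changes in those comparisons are to be read against that shift.

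Syt1, Syt2, Syt4, Syt5 and Syt7 were higher in NeuN+ nuclei of both regions, and Syt11 was lower in NeuN+ nuclei of both regions but for 1 scaling in prefrontal cortex. Syt6, Syt10, Syt16 and Syt17 had opposite directions in the 2 regions. Of these, Syt6 was higher in NeuN+ nuclei of cerebellum only, and the other three were higher in NeuN+ nuclei of prefrontal cortex only.

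**Figure D4:**
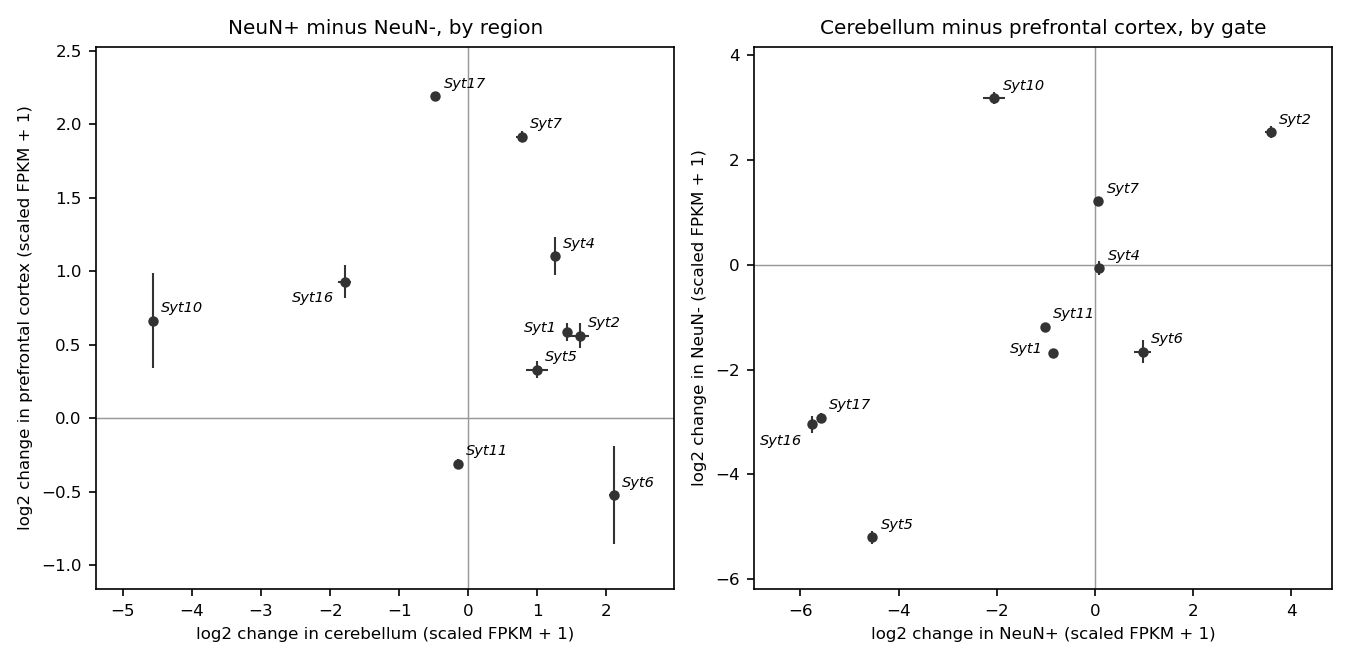
Log2 change of scaled FPKM + 1 for the 10 members, as NeuN+ minus NeuN- (left, cerebellum on the horizontal and prefrontal cortex on the vertical axis) and as cerebellum minus prefrontal cortex (right, NeuN+ on the horizontal and NeuN- on the vertical axis); points are differences of group means and lines the range over 4 pairings of libraries. Syt6, Syt10, Syt16 and Syt17 lie in quadrants of opposite gate direction, and the cerebellar values of Syt10 and Syt17 rest on NeuN+ libraries listed at 0.

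Features with the most similar pattern over the 8 libraries were sought among 8883 features for the 9 members that reached a mean of 5 scaled FPKM. The closest to Syt2 was Cbfa2t3 (Pearson r = 0.999 over 8 libraries on the log2 scale), with scaled means of 7.99 in cerebellar NeuN+, 3.64 in cerebellar NeuN-, 1.17 in prefrontal NeuN+ and 0.641 in prefrontal NeuN- nuclei. Itpka followed Syt5 (r = 0.999), Runx1t1 followed Syt7 (r = 0.999), Vps29 followed Syt11 (r = 0.999) and Cpne6 followed Syt16 (r = 0.999). Wdr34 was closest to Syt17 (r = 0.998), Gdf1 to Syt10 (r = 0.995) and Med23 to Syt4 (r = 0.995). The 8 libraries fall into 4 groups of 1 mouse, so these values describe likeness in the pattern of 4 group means. They do not describe likeness of level or of the size of change. Wdr34 had scaled means of 24.5 in cerebellar NeuN- and 52.5 in prefrontal NeuN+ nuclei, against 0.393 and 47.0 for Syt17. Gdf1 had 47.2 in cerebellar NeuN- and 24.1 in prefrontal NeuN- nuclei, against 22.7 and 1.63 for Syt10. In cerebellar NeuN+ nuclei, where Syt17 and Syt10 were lowest, Wdr34 had 23.4 and Gdf1 16.1.

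The remaining synaptotagmins were tested with limma, and 6 of the 7 passed the filter. Syt8 was listed at 0 in all 8 libraries. In cerebellum 5 of the 6 were higher and 1 was lower in NeuN+ nuclei, beside 32.4% and 39.2% of all features called. Of the 5, Syt9 (0.26 log2, limma adjusted p = 0.0174) was not called with a pseudocount of 0.1 (0.30, limma adjusted p = 0.208). Its call was also lost in most fits without a cerebellar library. In prefrontal cortex all 6 were higher, beside 35% of features called higher and 37.6% called lower. Syt3, linked to removal of AMPA receptors from synapses, had 23.6 and 24.2 FPKM in cerebellar NeuN+ libraries and 8.43 and 7.93 FPKM in cerebellar NeuN- libraries. It had 8.74 and 6.49 FPKM in prefrontal NeuN+ libraries and 2.04 and 1.76 FPKM in prefrontal NeuN- libraries, and the cerebellar NeuN- and prefrontal NeuN+ groups overlapped. Syt3 was higher in NeuN+ nuclei by 1.45 ± 0.124 log2 in cerebellum (SE, limma adjusted p = 6.09e-05) and by 1.72 ± 0.124 in prefrontal cortex (limma adjusted p = 2.79e-05).

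By region, 5 of the 6 were higher and 1 was lower in cerebellar than in prefrontal NeuN+ nuclei, beside 36.5% and 40.7% of features, and all 6 were higher in cerebellar than in prefrontal NeuN- nuclei, beside 40.5% of features called higher and 39% called lower. Syt9, a calcium sensor close to Syt1 and Syt2, had 5.79 and 5.99 FPKM in cerebellar NeuN+ libraries and 4.69 and 4.82 FPKM in cerebellar NeuN- libraries. It had 0.551 and 0.675 FPKM in prefrontal NeuN+ libraries and 0.0807 and 0.162 FPKM in prefrontal NeuN- libraries. Its region difference was 4.32-fold in NeuN+ nuclei (limma adjusted p = 9.08e-07) and 5.31-fold in NeuN- nuclei (limma adjusted p = 7.25e-07), the same direction as Syt2. Syt12, a member without calcium binding, was 2.40-fold higher in cerebellar NeuN+ nuclei (limma adjusted p = 5.25e-06) and 2.94-fold higher in cerebellar NeuN- nuclei (limma adjusted p = 2.48e-06) than in prefrontal nuclei of the same gate; its locus overlaps A930001C03Rik. Syt14, known in humans from a recessive ataxia, was the 1 gene lower in cerebellar than in prefrontal NeuN+ nuclei, 1.23-fold (limma adjusted p = 0.00879, but 0.0649 without cerebellar NeuN+ library 1). The cerebellar excess of Syt13 in NeuN- nuclei, 1.12-fold (limma adjusted p = 0.0344), turned to -0.05 log2 without scaling. Its call was lost when only the 2 groups compared were fitted (limma adjusted p = 0.0838), and in most fits without 1 library. The log2 change of 0.16 was 0.10 without prefrontal NeuN- library 2 and 0.18 without cerebellar NeuN- library 1.

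Whether the gate change differed between the regions was tested for these 6 genes. The change, cerebellum minus prefrontal cortex, was lower for 4, beside 37% of all features. The difference did not pass for Syt3 (-0.28 ± 0.176 log2, limma adjusted p = 0.196) and Syt13 (0.19 ± 0.0778, limma adjusted p = 0.0695). That of Syt3 passed with a pseudocount of 0.1 (-0.62, limma adjusted p = 0.0319) but reversed with a pseudocount of 5 (0.20). That of Syt13 passed without scaling (0.41, limma adjusted p = 0.00483) and with a pseudocount of 5 (0.17, limma adjusted p = 0.0489). It reversed with a common sum (-0.015). Without prefrontal NeuN+ library 2 the Syt3 difference was -0.47, and without prefrontal NeuN- library 2 that of Syt13 was 0.24. The calls of Syt9 (-0.30 ± 0.106, limma adjusted p = 0.0398) and Syt12 (-0.29 ± 0.0959, limma adjusted p = 0.0321) were lost without scaling and in most fits without 1 library, while those of Syt14 (-0.64 ± 0.107, limma adjusted p = 0.00177) and Syt15 passed under each alternative in which they were tested, which for Syt14 leaves out the filter of 5 FPKM. Syt15 had the largest of the 4 differences (-0.75 ± 0.0847 log2, limma adjusted p = 2.89e-04). It had 8.97 and 9.29 FPKM in cerebellar NeuN+ libraries and 11.2 and 10.5 FPKM in cerebellar NeuN- libraries, against 5.03 and 5.15 FPKM in prefrontal NeuN+ libraries and 3.88 and 3.76 FPKM in prefrontal NeuN- libraries. Syt15 was thus lower in NeuN+ nuclei of cerebellum (limma adjusted p = 0.0134), a call lost without cerebellar NeuN+ library 1 (0.0753) or cerebellar NeuN- library 1 (0.0899), and higher in NeuN+ nuclei of prefrontal cortex (limma adjusted p = 2.50e-04).

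Of 16 other genes for C2-domain proteins of secretion, 9 passed the filter. In NeuN+ nuclei of cerebellum 4 of the 9 were higher and 2 lower, beside 32.4% and 39.2% of all features called. In NeuN+ nuclei of prefrontal cortex 7 were higher and 2 lower, beside 35% and 37.6%. Between the regions 5 were higher and 4 lower in cerebellar nuclei of each gate, beside 36.5% and 40.7% of features in NeuN+ and 40.5% and 39% in NeuN- nuclei, and nothing particular to these 9 genes is read from the counts. In NeuN- nuclei the higher count was 3 without cerebellar NeuN- library 2 or either prefrontal NeuN+ library, and the lower count was 2 without cerebellar NeuN- library 1; in the cerebellar gate the lower count was 1 without either prefrontal NeuN+ library. Sytl2, a synaptotagmin-like effector of Rab27, had 3.01 and 3.61 FPKM in cerebellar NeuN+ libraries and 18.7 and 22.4 FPKM in cerebellar NeuN- libraries. It had 66.1 and 68.1 FPKM in prefrontal NeuN+ libraries and 29.6 and 29.3 FPKM in prefrontal NeuN- libraries. It fell 5.02-fold in NeuN+ nuclei of cerebellum (limma adjusted p = 2.33e-06) and rose 2.62-fold in NeuN+ nuclei of prefrontal cortex (limma adjusted p = 2.11e-05). By scaled means its groups had the order seen for Syt16, but the NeuN- groups of Sytl2 lay close together. Their region difference was -0.29 log2, against -3.04 for Syt16. It was -0.06 under quantile normalization and reversed with a common sum (0.0077). Cadps2, which primes dense-core vesicles, was 3.41-fold higher in NeuN+ nuclei of cerebellum (limma adjusted p = 1.46e-06) and 3.62-fold higher in cerebellar than in prefrontal NeuN+ nuclei (limma adjusted p = 8.01e-07), while its paralog Cadps was 3.37-fold lower in cerebellar than in prefrontal NeuN+ nuclei (limma adjusted p = 9.89e-07). Cadps2 overlaps Rnf133 and Rnf148, within its locus.

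Among the partners of synaptotagmins in release, more genes were called higher than lower in NeuN+ nuclei of both regions. Of 52 partner genes tested, of 55 listed, 33 were higher and 8 lower in NeuN+ nuclei of cerebellum, beside 32.4% and 39.2% of all features, with a median log2 change of 0.41 against -0.04 for all features; the lower count was 5 without either cerebellar NeuN+ library or without cerebellar NeuN- library 2, and 4 under quantile normalization. In prefrontal cortex 32 were higher and 12 lower in NeuN+ nuclei, beside 35% and 37.6% of all features, with a median of 0.38 against -0.01. By region 23 were higher and 24 lower in cerebellar than in prefrontal NeuN+ nuclei, beside 36.5% and 40.7% of all features. In NeuN- nuclei 25 were higher and 24 lower in cerebellum, beside 40.5% and 39%, so the 2 directions were about as evenly split as among all features.

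Some related partner genes differed in opposite directions between the regions. Of the active zone proteins, Erc1 was 6.15-fold higher in NeuN+ nuclei of cerebellum (limma adjusted p = 6.54e-07) and Erc2 was 9.02-fold higher in NeuN+ nuclei of prefrontal cortex (limma adjusted p = 7.52e-07). In NeuN+ nuclei Erc1 was 6.18-fold higher (limma adjusted p = 3.60e-07) and Erc2 11.6-fold lower (limma adjusted p = 3.42e-07) in cerebellum than in prefrontal cortex. Of the Munc13 priming factors, Unc13c had 14.6 and 14.0 FPKM in cerebellar NeuN+ libraries and 0.515 and 0.592 FPKM in prefrontal NeuN+ libraries, a 9.98-fold difference (limma adjusted p = 1.31e-07). Unc13b had 0.507 and 0.572 FPKM in cerebellar NeuN+ libraries and 16.8 and 15.9 FPKM in prefrontal NeuN+ libraries, 11.5-fold lower in cerebellum (limma adjusted p = 1.96e-07).

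The SNARE proteins that synaptotagmins bind were not uniform. Stx1a, the plasma membrane syntaxin of release, was 18-fold lower in cerebellar than in prefrontal NeuN+ nuclei (limma adjusted p = 4.07e-07), and Vamp2, its vesicle partner, was 2.32-fold higher (limma adjusted p = 1.72e-04). Snap25, itself a general neuronal marker and the largest part of their sum, had 980 and 976 FPKM in prefrontal NeuN+ libraries. It had 1579 and 1664 FPKM in prefrontal NeuN- libraries and was 1.40-fold lower in NeuN+ nuclei (limma adjusted p = 2.38e-04). Under quantile normalization the Snap25 log2 change was -0.07 and the call was lost. Of the complexins, which clamp and promote fusion with Syt1, Cplx2 was 3.58-fold higher (limma adjusted p = 6.21e-06) and Cplx3 7.42-fold lower (limma adjusted p = 2.97e-07) in cerebellar than in prefrontal NeuN+ nuclei. Cacna1a, the P/Q-type calcium channel of release sites, was 3.30-fold higher in cerebellar than in prefrontal NeuN+ nuclei (limma adjusted p = 3.07e-06) and 3.58-fold higher in cerebellar than in prefrontal NeuN- nuclei (limma adjusted p = 2.62e-06). Synpr, a vesicle membrane protein, was 15.9-fold lower in cerebellar than in prefrontal NeuN- nuclei (limma adjusted p = 1.91e-07).

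**Figure D5:**
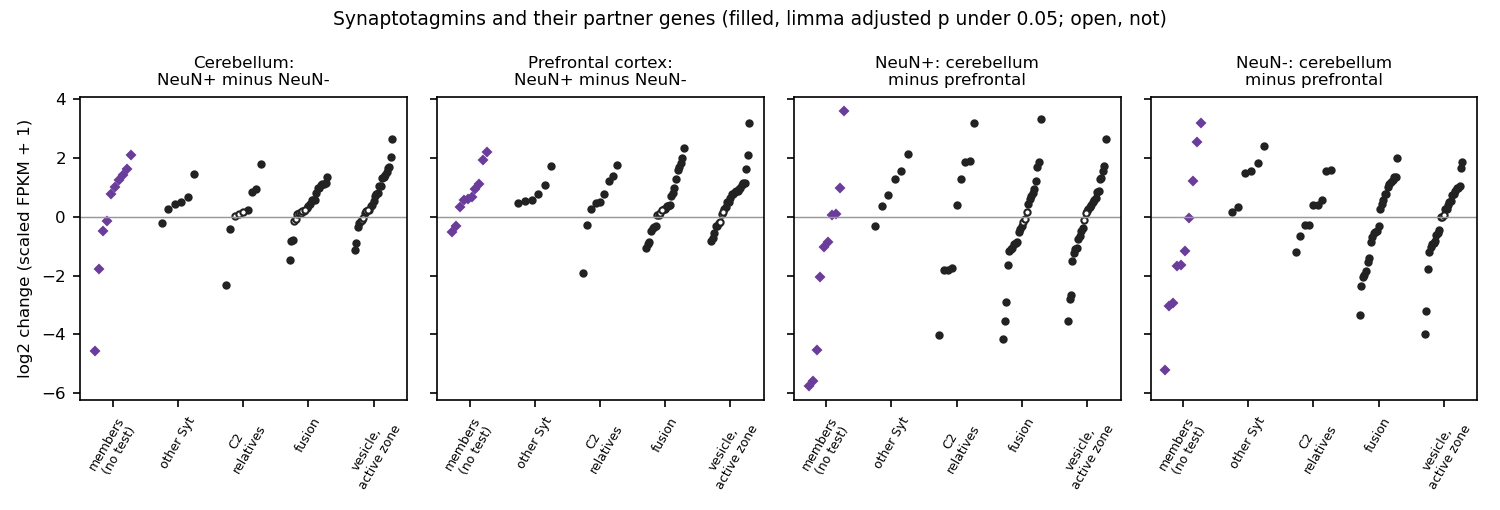
Log2 change of scaled FPKM + 1 (vertical axis) for the 10 members (diamonds, no test), the other synaptotagmins, C2 relatives, fusion proteins, and vesicle and active zone proteins (horizontal axis, genes in order of change), one panel per comparison. Filled circles are genes with a limma adjusted p under 0.05 and open circles the rest; in cerebellum 33 of 52 partner genes are higher in NeuN+ nuclei and 8 lower.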

How the data were processed

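RNA of sorted nuclei was sequenced in 8 libraries, 4 groups of 2. The authors deposited FPKM per gene, each with lower and upper limits and a status flag, per the file headers, which are those of Cufflinks. Cufflinks, TopHat2 2.1.1, Bowtie 1.1.1, Trim Galore 0.3.7 and the mouse build mm9 appear in the submitters' processing notes; which annotation and Cufflinks version were used, and whether strand was, is not stated there. The status was not OK for 14 values, none of them of a synaptotagmin, and an exact 0 may be a failed estimate, so such values are given as listed at 0. Of the small fragment numbers that low FPKM imply, 49.9% to 53.4% lay within 0.05 of a whole number; fragments could not be recovered, absolute depth is unknown, and count tests were left out. Within each group the 2 libraries had 0 identical values above 0 (Spearman correlation 0.972 to 0.977 within groups).

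FPKM were multiplied by median-of-ratios factors (0.869 to 1.04, over 9109 features), a filter of 1 FPKM in 2 or more libraries kept 14376 of 24854 features, and limma 3.58.1 (R 4.3.3, variance trend on) was fitted to log2(scaled FPKM + 1). The pseudocount of 1 understates changes of low genes. Tests were two-sided, with Benjamini-Hochberg adjustment over all kept features and calls at 0.05. The script was tested on simulated data. Per the labels, NeuN- and NeuN+ nuclei came from 1 mouse; handling of prefrontal cortex is not described there.

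The members and all gene lists were chosen with earlier results of these data known. Named are all synaptotagmins, per list and comparison up to 4 called genes of greatest rise and up to 4 of greatest fall whose higher group averaged 5 scaled FPKM or more, Rbfox3, and for members above that level the features of highest Pearson r; the text gives a selection of these, and the feature closest to Syt1 is not reported here. Positions are those of the deposited tables (mm9, starts counted from 1); promoter sequences are from RefSeq on GRCm38.p6, matched by symbol.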

Additional observations from a re-analysis of the deposited data

Results flagged for a closer look

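For 4 members the gate change had opposite directions in cerebellum and prefrontal cortex. For Syt6 and Syt10 the region change also had opposite directions in NeuN+ and NeuN- nuclei. These differences were not tested, since the members were chosen on the same values. The log2 gate change of Syt6 (NeuN+ minus NeuN-) was 2.104 in cerebellum and -0.52 in prefrontal cortex, and its region change (cerebellum minus prefrontal cortex) was 0.97 in NeuN+ and -1.66 in NeuN- nuclei. For Syt10 the gate change was -4.57 in cerebellum and 0.66 in prefrontal cortex, and the region change was -2.05 in NeuN+ and 3.18 in NeuN- nuclei; the values of -4.57 and -2.05 set libraries listed at 0 against others and depend on the pseudocount. The gate change of Syt16 was -1.79 in cerebellum and 0.93 in prefrontal cortex. That of Syt17 was -0.48 in cerebellum, again against libraries listed at 0, and 2.19 in prefrontal cortex.

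Among the remaining synaptotagmins, the region change of Syt14 was -0.30 in NeuN+ and 0.33 in NeuN- nuclei, and the gate change of Syt15 was -0.22 in cerebellum and 0.53 in prefrontal cortex. The difference of the gate changes, cerebellum minus prefrontal cortex, passed limma at an adjusted p under 0.05 for Syt9 (-0.30), Syt12 (-0.29), Syt14 (-0.64) and Syt15 (-0.75).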

How the results depend on the processing

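Alternatives were other pseudocounts, scalings and filters, limma without the variance trend, only the groups compared, a replicate block, and leaving out each library. Of the counts, 531 of the alternative values stayed within 1.5 times the reported value and 21 did not. Quantile normalization gave 4 lower release partners in the cerebellar gate (8 reported; 5 to 8 without 1 library), 1 lower member in the prefrontal gate (2 reported), and 0 lower of the remaining synaptotagmins in the cerebellar gate and in the NeuN+ region comparison (1 reported in each; 0 to 1 without 1 library). A filter of 5 FPKM gave 1 lower C2 relative in the cerebellar gate (2 reported; 1 to 2 without 1 library), 1 lower member in the prefrontal gate, and 0 lower of the remaining synaptotagmins in the NeuN+ region comparison. Rescaling to a common sum gave 1 lower C2 relative in the prefrontal gate (2 reported) and 2 lower in the NeuN- region comparison (4 reported; 2 to 4 without 1 library, where 3 to 4 were higher and 5 reported). The direction reversed for Syt11 in the prefrontal gate under quantile normalization (0.0028), for Syt13 in the NeuN- region comparison without scaling (-0.054), for Sytl2 there with a common sum (0.0077), and for the difference of gate changes with a pseudocount of 5 in Syt3 (0.20) and Syt9 (0.020) and with a common sum in Syt13 (-0.015). The cause was not tested. Over all features the prefrontal gate had 5028 higher and 5403 lower calls, against 3813 and 6764 without scaling, 6293 and 4217 with a common sum and 5748 and 4626 under quantile normalization. The NeuN- region comparison had 5821 and 5600, against 4874 and 6554 without scaling and 7193 and 4399 with a common sum. The cerebellar gate had 4660 and 5640, against 5869 and 4646 under quantile normalization.

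Same-numbered libraries did not deviate together (correlation -0.05 to 0.03). Differences between libraries of a group may be technical, so this cannot show whether same-numbered libraries share a step. The main fit treated them as unpaired. With the replicate block, 32 release partners were higher and 7 lower in the cerebellar gate (33 and 8 without it), and the calls of Syt13 (adjusted p = 0.0536) and Esyt1 (adjusted p = 0.0673) in the NeuN- region comparison were lost. Leaving out a library leaves 1 in its group, assumed to vary like the others. With 2 libraries a group from 1 mouse, values below 1 FPKM are the least certain.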
